A study of Mus musculus with 6 samples.

Results

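The protein part of the cytosolic ribosome is encoded by a large family of short genes, and the mRNA transcripts of that family were followed here in whole retinas of wild-type (WT) and Nrl-/- mice. The members were all transcripts of the BWA mRNA table whose symbol begins with Rpl or Rps followed by a digit, a p or an a, leaving out the Rps6k kinases. They came to 89 transcripts of 81 gene symbols, among 15142 mRNA transcripts of 12145 symbols. Of these, 51 transcripts (46 symbols) belonged to the large subunit and 32 (29 symbols) to the small subunit. The other members were 3 transcripts of the paralogs Rpl22l1, Rpl36al and Rps27l, 1 transcript under the pseudogene symbol Rpl34-ps1, and 1 transcript each of Rpl7l1 and Rps19bp1, which carry the family's name but are not parts of the mature ribosome.

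The study made mRNA libraries from total RNA of retinas at postnatal day 21, with 3 libraries of WT and 3 of Nrl-/- mice. The labels give the strain as C57BL/6, and the methods name C57Bl/6J both for WT and as the background of Nrl-/-. Nrl encodes a transcription factor that rods need to form, and its germline loss leaves a retina with cone-like photoreceptors in place of rods. Levels were given as FPKM, fragments scaled by transcript length and by library size, so that levels of different genes are compared per length. Each transcript had a value in each library from the BWA alignments, which were not made across splice junctions, and each genotype had 1 pooled value from the TopHat alignments, which were.

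Ribosomal proteins assemble with ribosomal RNA in the nucleolus into a large subunit, which joins amino acids, and a small subunit, which reads the mRNA. They are needed in nearly fixed proportion, and their mRNAs share a run of pyrimidines at the cap, the 5' terminal oligopyrimidine (TOP) motif, through which mTOR signaling sets their translation. Their short, abundant mRNAs have been copied back into the mammalian genome many times as intron-less processed pseudogenes, so that a short read from a parent mRNA often has an exact match elsewhere. Photoreceptors renew their outer segments daily and have a high demand for protein synthesis.

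RefSeq promoters (build GRCm38.p6) were at hand for 59 of the 81 symbols. A run of at least 8 uninterrupted C or T letters, counted from its first C on the strand of the gene and with that C within 20 bases of the annotated start, was found for 30 of them (50.8%), against 4245 of 27025 symbols (15.7%) in the whole promoter table and 16.9% of the other symbols of the BWA table. The stretches below run from 25 bases before to 25 bases from the annotated start, with the run in capitals. They are shown because they belong to genes to which the results return, of which Rpl15 and Rpl27a were called higher in Nrl-/- retina while Rps6 and Rpl4 were not called.
Rpl15 (chr14:18270962-18271011, minus strand): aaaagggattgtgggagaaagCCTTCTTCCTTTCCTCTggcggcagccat
Rpl27a (chr7:109519170-109519219, plus strand): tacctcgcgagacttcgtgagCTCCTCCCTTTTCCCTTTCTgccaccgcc
Rps6 (chr4:86857343-86857392, minus strand): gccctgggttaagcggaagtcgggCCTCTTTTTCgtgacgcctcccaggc
Rpl4 (chr9:64173362-64173411, plus strand): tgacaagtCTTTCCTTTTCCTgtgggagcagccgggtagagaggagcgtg
The run was 17 letters long in Rpl15, 20 in Rpl27a, 10 in Rps6 and 13 in Rpl4. A match of letters is a description of the sequence and was not tested as a site.

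The FPKM of Nrl itself (NM_001136074) was 552, 583 and 500.5 in the WT libraries and 0.919, 0.879 and 0.959 in the Nrl-/- libraries, and its other transcript, NM_008736, was listed at 0 in the latter. The summed FPKM of 6 rod genes lay between 5269 and 5911 in WT and between 19.3 and 19.6 in Nrl-/- retina, and that of 6 cone genes lay between 299 and 356 in WT and between 4919 and 5047 in Nrl-/- retina. In whole retina, fewer cells of a type and less RNA per cell cannot be told apart. Xist (NR_001463) was at 186 in WT replicate 2 and at 0.0497 or less in the other libraries. Of 5 lens genes 1 was measured, and it fell (log2 fold change -1.14), and summed pigment epithelium genes ranged from 9.30 to 72.2 among the WT libraries. The part of these in the results below was not tested. By the study's methods the 3 libraries of a genotype came from 3 mice. Numbers of reads per transcript were not used here, so that counting intervals cannot be given.

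On the deposited values the ribosomal protein transcripts, as a family, stood at nearly the same level in both genotypes. Their summed FPKM was 1575, 1592 and 1623 in the WT libraries and 1599.6, 1586 and 1589 in the Nrl-/- libraries. The means (± SD, n = 3 libraries) were 1597 ± 24.4 in WT and 1591 ± 7.30 in Nrl-/- retina, and the range of Nrl-/- lay within the range of WT. Of all summed FPKM this was a share of 0.810% ± 0.0216 for WT and of 0.798% ± 0.00368 for Nrl-/- retina, likewise over 3 libraries.

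The median log2 fold change (Nrl-/- minus WT, on the scale of log2(FPKM + 1)) was 0.02 over the 89 members and 0.08 over all 15142 transcripts. For 64 members (71.9%) the log2 fold change lay from -0.20 to 0.20, limits included, as it did for 57.0% of all transcripts. The members lay from the lower to the upper quartile between -0.12 and 0.12, and all transcripts between -0.07 and 0.24. The lowest member was at -0.56 and the highest at 0.50.

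**Figure D1:**
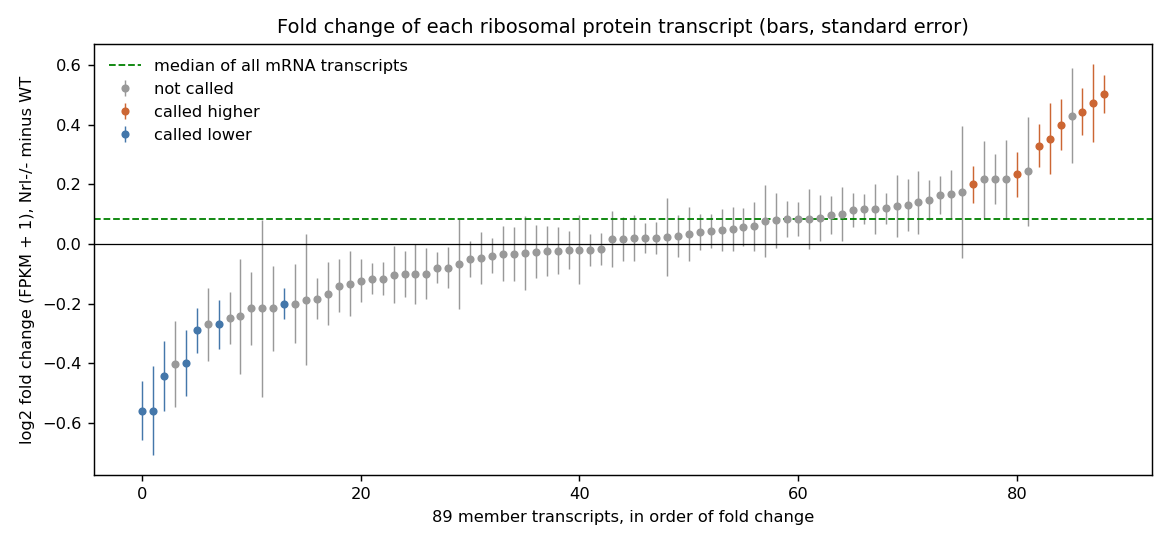
Log2 fold change of FPKM + 1 (Nrl-/- minus WT, vertical axis) of the 89 member transcripts in order of size (horizontal axis), with bars of 1 standard error and a dashed line at the median of all mRNA transcripts (0.08). Members range from -0.56 to 0.50, with 8 called higher, 7 called lower and 74 not called.

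By limma on all transcripts, with an adjusted p (Benjamini-Hochberg) under 0.05 as the call, 8 members (8.99%) were higher and 7 (7.87%) lower in Nrl-/- retina, where 26.7% of all transcripts were called higher and 10.1% lower. By the study's rule of a fold change of at least 1.5 with an unadjusted p under 0.05, counted in the same limma fit, 0 members were called against 9.34% of all transcripts, while 23 members (25.8%) had an unadjusted p under 0.05, against 45.8% of all transcripts. The ordinary linear model called 3 members higher and 2 lower by adjusted p, and of all transcripts 19.4% higher and 7.57% lower. That count of 0 became 2 under each of 4 other scalings of the libraries, with Rpl36 and Rps24 NM_207634 both lower, where 8.82% to 8.88% of all transcripts passed. It also became 4 with a pseudocount of 0.1 (13.0% of all transcripts) and 2 with one of 0.5 (10.9%). It was 3 without WT replicate 3 and 2 without Nrl-/- replicate 1 or without Nrl-/- replicate 2, where 9.15% to 9.44% of all transcripts passed. In 14 members every Nrl-/- library lay above every WT library, against 34.9% of all transcripts, and in 11 every Nrl-/- library lay below, against 14.2%. The counts moved by more than 1.5 times without single libraries: 5 were higher without WT replicate 2 or without Nrl-/- replicate 1, and 4 were lower without Nrl-/- replicate 3. In the same fits the calls over all transcripts fell to 23.3% and 18.4% higher and to 8.04% lower.

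These counts moved with the scaling of the libraries. Scaling by median-of-ratios moved the median of all transcripts from 0.08 to -0.0040 and that of the members from 0.02 to -0.09, and the calls from 8 higher and 7 lower to 5 higher (5.62%) and 13 lower (14.6%). Of all transcripts 16.3% were then higher and 15.0% lower, so that the share of members called lower was near that of all transcripts. Under all of 4 scalings (median-of-ratios, upper quartile, quantiles, and one that leaves out the 25 highest transcripts) 17 members were called, 4 higher and 13 lower, of which 11 were also called on the deposited values. Of all transcripts 14.9% were called higher and 14.2% lower under all of these scalings. The 4 higher ones were Rpl15, Rpl5, Rpl27a and Rps19bp1. The 6 that were called lower only after scaling were Rpl8, Rpl10a, Rps14, Rps20, Rps26 and the Rps24 transcript NM_011297. Among them Rpl8, a core protein of the large subunit, had FPKM of 131, 124 and 122 in WT and of 117, 113 and 117 in Nrl-/- retina, without overlap. Its log2 fold change was -0.12 as deposited (limma adjusted p = 0.117, standard error 0.05) and -0.26 to -0.22 after scaling.

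By subunit, of the 51 large subunit transcripts 5 were higher and 3 lower, with a median log2 fold change of -0.02. Of the 32 small subunit transcripts 0 were higher and 4 lower, with a median of 0.02. Over all transcripts 26.7% were higher and 10.1% lower. The difference between the subunits was not tested. The other 3 higher members were the paralog Rpl36al, Rpl7l1 and Rps19bp1.

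Rpl15 rose most, with the smallest p of the family. It encodes a large subunit protein that packs against ribosomal RNA, and the gene lies on chromosome 14 (NCBIM37, 19100337 to 19103581, minus strand). Its FPKM was 11.3, 11.6 and 13.0 in WT and 17.6, 16.9 and 17.6 in Nrl-/- retina, so that the groups did not overlap. The log2 fold change was 0.50 (limma adjusted p = 0.00034, standard error 0.06), and it stayed a call, between 0.39 and 0.56, under all 18 alternatives fitted to single transcripts. In the pooled TopHat values it stood at 11.6 in WT and 16.4 in Nrl-/- retina, a log2 ratio of 0.50.

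Rpl5, a large subunit protein that binds 5S ribosomal RNA and, with Rpl11, restrains Mdm2, was also higher. Its FPKM was 4.10, 3.86 and 4.62 in WT and 5.92, 6.52 and 5.73 in Nrl-/- retina, without overlap. The log2 fold change was 0.44 (limma adjusted p = 0.00221, standard error 0.08) and was called under all 18 alternatives. The pooled TopHat values were 36.2 in WT and 37.1 in Nrl-/- retina, a log2 ratio of 0.03. Rpl11, its partner, had a log2 fold change of -0.14 (limma adjusted p = 0.256, standard error 0.09).

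Rpl27a, a large subunit protein, had FPKM of 6.52, 8.06 and 6.57 in WT and of 9.85, 8.92 and 10.004 in Nrl-/- retina, without overlap. Its log2 fold change was 0.40 (limma adjusted p = 0.00604, standard error 0.09), and it lost the call under the ordinary linear model alone (adjusted p = 0.0562). TopHat listed it at 16.2 in WT and 18.1 in Nrl-/- retina, a log2 ratio of 0.16.

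Rpl10, the X-linked large subunit protein that is added late in subunit maturation, overlapped between the genotypes. Its FPKM was 2.58, 2.63 and 3.23 in WT and 3.96, 3.11 and 4.62 in Nrl-/- retina. The log2 fold change of 0.35 (limma adjusted p = 0.0451, standard error 0.12) was no longer called without WT replicate 1 (adjusted p = 0.122), WT replicate 2 (0.123), Nrl-/- replicate 1 (0.122) or Nrl-/- replicate 3 (0.156), nor after any of the 4 scalings (0.108 to 0.136). The ordinary linear model did not call Rpl10 either (adjusted p = 0.170). TopHat gave 6.57 in WT and 8.90 in Nrl-/- retina, a log2 ratio of 0.44. Of the other X-linked members, Rps4x was at 30.6, 33.8 and 36.0 in WT and 38.1, 36.5 and 36.5 in Nrl-/- retina, and WT replicate 2, the library with Xist, lay between the other WT libraries.

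Of the remaining higher calls, 3 belonged to members beside the core family, and the other to a transcript of Rpl35a, described with its gene further on. Rps19bp1, which binds Rps19 and activates the deacetylase Sirt1, was at 9.34, 9.27 and 9.41 in WT and at 12.3, 13.0 and 10.8 in Nrl-/- retina, without overlap, and the log2 fold change of 0.33 (limma adjusted p = 0.00645, standard error 0.07) was called under all 18 alternatives. Rpl36al, an autosomal paralog of the X-linked Rpl36a, was at 8.92, 10.7 and 9.63 in WT and 11.1, 11.4 and 12.4 in Nrl-/- retina, and its log2 fold change was 0.23 (limma adjusted p = 0.0379, standard error 0.08). Rpl7l1, a nucleolar relative of Rpl7, was at 10.2, 10.5 and 11.5 in WT and 12.5, 12.3 and 12.5 in Nrl-/- retina, and its log2 fold change was 0.20 (limma adjusted p = 0.0305, standard error 0.06). The last pair did not overlap between genotypes either, but both lost the call under all 4 scalings, with adjusted p of 0.205 to 0.269 for Rpl36al and 0.248 to 0.325 for Rpl7l1. Rpl36al also lost it when any library but WT replicate 2 was left out (0.0685 to 0.134), and Rpl7l1 when any library but WT replicate 3 was left out (0.0576 to 0.111). The ordinary linear model called neither Rpl36al (adjusted p = 0.115) nor Rpl7l1 (0.0535), and limma without a trend did not call Rpl36al (0.0506).

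Beside these paralogs stood the genes they resemble. Rpl36a had a log2 fold change of -0.10 (95% interval -0.33 to 0.13) and Rpl7 one of -0.03 (-0.23 to 0.18). Rpl22, at 31.4 ± 1.46 in WT and 31.0 ± 0.444 in Nrl-/- retina, had a log2 fold change of -0.02 (-0.14 to 0.11), and its paralog Rpl22l1, at 12.1 ± 1.05 and 11.8 ± 1.32, one of -0.03 (-0.24 to 0.17). Rps27l was at 6.02 ± 0.744 in WT and 6.74 ± 0.917 in Nrl-/- retina, which gave a log2 fold change of 0.14 (-0.10 to 0.38), with SD over 3 libraries in each case. None of these 5 was called. The difference between a paralog and its relative was not tested.

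**Figure D2:**
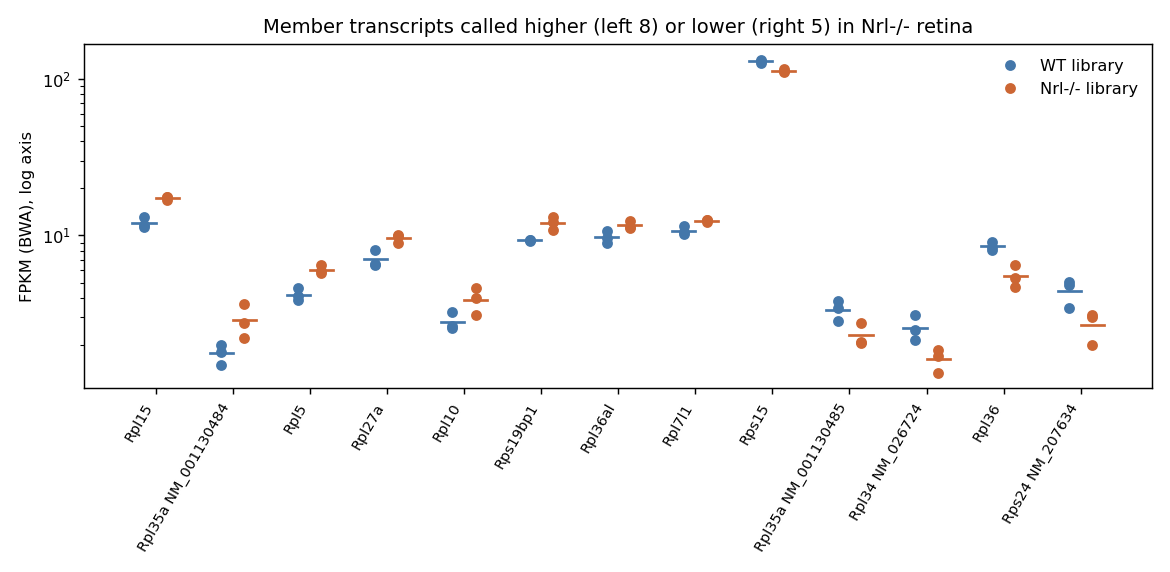
FPKM in each library (points, log axis) of 13 of the member transcripts called by limma, with lines at the group means, WT left and Nrl-/- right of each pair. Rpl15 lies at 11.3 to 13.0 in WT and 16.9 to 17.6 in Nrl-/- retina, and of those shown only Rpl10 overlaps between the genotypes.

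Rpl36 fell most among genes with 1 transcript. It encodes a large subunit protein, and the gene is on chromosome 17 (NCBIM37, 56752818 to 56753666, plus strand). Its FPKM was 9.13, 8.38 and 8.06 in WT and 4.70, 6.46 and 5.32 in Nrl-/- retina, without overlap. The log2 fold change was -0.56 (limma adjusted p = 0.00218, standard error 0.10) and was called under all 18 alternatives, between -0.67 and -0.47. TopHat listed 13.8 in WT and 11.8 in Nrl-/- retina, a log2 ratio of -0.23.

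Rps15, a protein of the head of the small subunit, was among the 3 most abundant members. Its FPKM was 126, 131 and 132 in WT and 113, 109.7 and 116 in Nrl-/- retina, without overlap, a log2 fold change of -0.20 (limma adjusted p = 0.0149, standard error 0.05). TopHat gave 166 in WT and 147 in Nrl-/- retina, a log2 ratio of -0.17. The call was lost without Nrl-/- replicate 1 (adjusted p = 0.0678) or Nrl-/- replicate 2 (0.0911).

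In 3 genes with several transcripts the calls did not carry over to the gene. For Rps24, a small subunit protein with alternatively spliced 3' ends, NM_207634 was at 4.82, 5.06 and 3.44 in WT and 3.0, 3.08 and 1.99 in Nrl-/- retina, which gave a log2 fold change of -0.56 (limma adjusted p = 0.0169, standard error 0.15). NM_011297 had a log2 fold change of -0.40 (limma, adjusted p = 0.0562, standard error 0.15), and NM_207635, the most abundant at 14.99 ± 4.02 in WT and 20.1 ± 1.40 in Nrl-/- retina (SD, n = 3), one of 0.43 (adjusted p = 0.0627, standard error 0.16). WT replicate 1 stood apart for NM_207635, at 10.7 against 15.6 and 18.7 in the other WT libraries. With the 3 transcripts summed the log2 fold change of Rps24 was 0.11 (adjusted p = 0.382). The call of NM_207634 was lost without WT replicate 1 (0.0604), WT replicate 2 (0.0649) or Nrl-/- replicate 3 (0.0545). It was also lost under the ordinary linear model (adjusted p = 0.123).

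Rpl35a, a large subunit protein, had a transcript on each side. NM_001130484 was at 1.99, 1.81 and 1.497 in WT and 2.23, 2.76 and 3.63 in Nrl-/- retina, which gave a log2 fold change of 0.47 (limma adjusted p = 0.0208, standard error 0.13). NM_001130485 was at 3.79, 3.44 and 2.84 in WT and 2.76, 2.05 and 2.10 in Nrl-/- retina, which gave a log2 fold change of -0.40 (adjusted p = 0.0208, standard error 0.11). The third, NM_021338, ranged from 0.625 to 3.06 among the WT libraries and was not called (adjusted p = 0.608). Summed, Rpl35a had a log2 fold change of -0.09 (limma, adjusted p = 0.438), and TopHat listed it at 6.80 in WT and 6.68 in Nrl-/- retina. The call of NM_001130484 was lost without WT replicate 2 (0.0501), WT replicate 3 (0.0618) or Nrl-/- replicate 3 (0.0631), and that of NM_001130485 without WT replicate 1 (0.0656), WT replicate 2 (0.0618), Nrl-/- replicate 2 (0.0782) or Nrl-/- replicate 3 (0.0752). The ordinary linear model called neither (adjusted p = 0.120 and 0.107). NM_001130484 also lost its call in the scaling without the 25 highest transcripts (0.0515).

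For Rpl34, another large subunit protein, NM_026724 was at 3.08, 2.51 and 2.16 in WT and 1.69, 1.87 and 1.33 in Nrl-/- retina. Its log2 fold change was -0.44 (limma adjusted p = 0.0160, standard error 0.12). The call was lost without Nrl-/- replicate 3 (0.0601) and under the ordinary linear model (0.0922). The more abundant NM_001005859, at 12.8 ± 1.45 in WT and 13.9 ± 0.833 in Nrl-/- retina (SD, n = 3), was not called, and the sum had a log2 fold change of 0.02 (limma, adjusted p = 0.878). Rpl19, Rpl30 and Rps27a also had more than 1 transcript, and none of theirs was called. Over gene sums 7 of 81 symbols (8.64%) were higher and 5 (6.17%) lower, where 30.3% of all symbols were higher and 11.1% lower. The lower ones included Rpl10a (adjusted p = 0.0401 there, against 0.0503 in the fit of transcripts), Rpl36 and Rps15.

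Of the housekeeping genes that the study evaluated, 4 are members, and on the deposited values none of them was called. Rpl13a was at 43.6, 46.2 and 42.7 in WT and 42.7, 44.9 and 43.0 in Nrl-/- retina, which gave a log2 fold change of -0.02 (95% interval -0.14 to 0.10). Rplp0, the scaffold of the ribosomal stalk, was at 37.6, 38.1 and 38.7 in WT and 38.4, 39.8 and 37.9 in Nrl-/- retina, which gave a log2 fold change of 0.02 (-0.09 to 0.13). Both spread little and overlapped between the genotypes. Rplp2, a stalk protein bound to Rplp0, had a log2 fold change of -0.10 (-0.32 to 0.11), and Rps26, of the platform of the small subunit, one of -0.08 (-0.20 to 0.04). After scaling, Rps26 was called lower under all 4 scalings (-0.20 to -0.18) and Rpl13a under 1 of them (-0.16). The study also measured Rpl13a and Rps26 by qRT-PCR. Both were lower in Nrl-/- retina there, by more than in its RNA-seq values, and the study marked neither as significantly different. It also reports that the BWA workflow underestimated the levels of both, and ascribes this to pseudogenes.

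Levels within the family differed far more than levels between genotypes. Over 78 member genes with values in both quantifications, BWA FPKM in WT ran from 0.596 to 129.7, a 218-fold range, with a median of 9.66. The most abundant transcript over all libraries was Rpl4, at 114, 121 and 128 in WT and 126, 125 and 122 in Nrl-/- retina, and Rps15, Rpl8, Rplp1, Rpl41, Rps9 and Rpl32 were also among the 8 highest. Among the 8 at the other end were Rps27a NM_024277, Rpl38, Rpl27, Rpl35, Rpl28, Rpl35a NM_021338 and Rps6. Rps6, the small subunit protein that S6 kinases phosphorylate, was at 1.27, 1.36 and 1.57 in WT and 1.62, 1.75 and 1.497 in Nrl-/- retina, and Rpl38 was at 1.01, 0.526 and 0.248 in WT and 0.485, 0.0210 and 0.717 in Nrl-/- retina. The standard error of the log2 fold change had a median of 0.12 over the 36 members with a mean FPKM under 5, of 0.08 over the 33 from 5 to under 20, and of 0.06 over the 20 at 20 or more. Called were 5 of the first set, 9 of the second and 1 (Rps15) of the third.

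**Figure D3:**
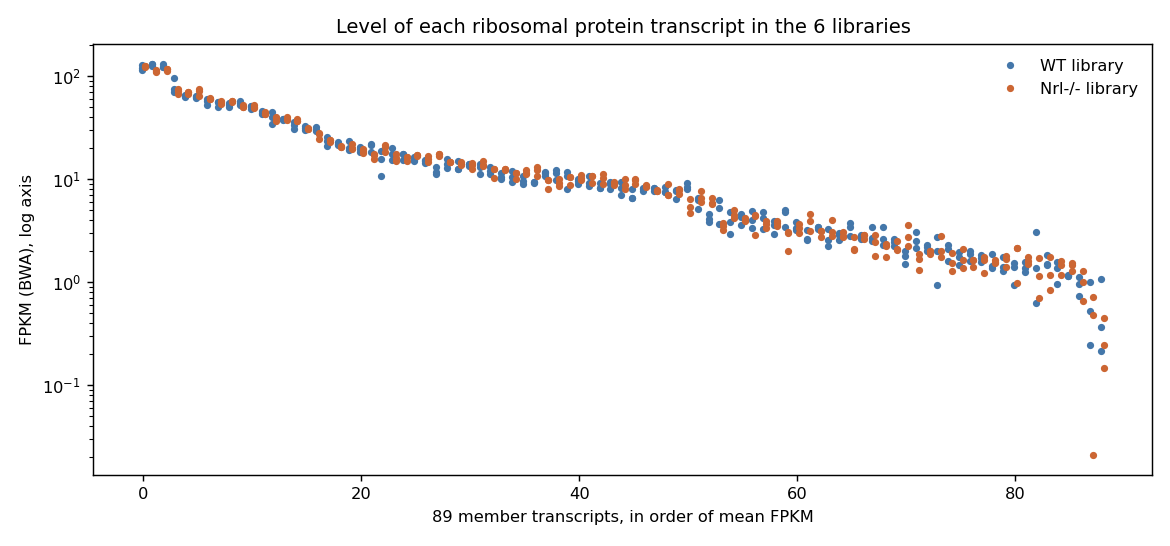
FPKM from BWA (log axis) of the 89 member transcripts in each of 3 WT and 3 Nrl-/- libraries (points), in order of mean FPKM. The transcripts fall from about 100 to below 1 while the points of both genotypes lie close together for most of them, and the points spread most at the low end.

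The sequence of each member was then compared with the genome for exact copies. Every stretch of 70 bases, the read length, was taken from 1 mRNA of each of 77 member genes and looked up in the NCBIM37 genome on both strands. Rps19bp1 and Rpl7l1, which are no ribosomal proteins, were left out of these counts, and 0% and 2.61% of their junction windows had an exact match. The share of windows that lay within 1 exon and had no second exact match was 28.6% (median over genes), against 76.9% over 11914 other genes of the table. Among windows across a splice junction with at least 8 bases on each side, which have no place in their own gene's genomic sequence, the median share with an exact match elsewhere was 75.4%, and it was 0% for the other genes. At least 1 such match was found for 74 of 77 members (96.1%), against 8.13% of other genes with a junction. Rps3 and Rpl8 were among the exceptions. The share was 100% for Rpl5, 88.5% for Rpl36 and 80.6% for Rpl15, the ribosomal proteins called under all alternatives fitted to single transcripts. Those alternatives all used the BWA values, so that none of them changed the alignment.

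Such windows, centred on a junction within the coding sequence, are shown because a read of this length is the unit that was aligned, with the downstream exon in capitals. The first 4 have exact copies elsewhere and the last does not.
Rpl38 (parent on chromosome 11): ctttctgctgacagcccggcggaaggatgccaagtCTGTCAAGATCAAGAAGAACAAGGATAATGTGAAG
Rps6 (parent on chromosome 4): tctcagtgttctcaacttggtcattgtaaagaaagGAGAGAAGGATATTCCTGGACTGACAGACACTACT
Rpl24 (parent on chromosome 16): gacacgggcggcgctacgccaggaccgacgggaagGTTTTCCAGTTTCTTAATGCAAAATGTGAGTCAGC
Rps29 (parent on chromosome 12): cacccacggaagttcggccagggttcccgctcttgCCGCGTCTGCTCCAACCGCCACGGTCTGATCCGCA
Rpl4 (parent on chromosome 9): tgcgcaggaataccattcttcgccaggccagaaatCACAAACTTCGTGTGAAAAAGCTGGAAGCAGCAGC
The Rpl38 window stands whole and unspliced at chr6:140695595-140695664 (NCBIM37, minus strand), within the annotated pseudogene Rpl38-ps2. That of Rps6 stands at chr2:75029496-75029565 in Gm13654, that of Rpl24 at chr9:115950066-115950135 in Gm9385, inside Gadl1, and that of Rps29 at chr2:172335095-172335164 in Gm14303 and at chrX:7624382-7624451 in Gm7079.

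The level of a member by BWA went with the share of its junction windows that had a copy. The 6 genes with under 10% had a median WT FPKM of 58.1, the 11 with 10% to 50% one of 31.4, the 42 with over 50% to 90% one of 8.71 and the 18 with over 90% one of 2.91. Spearman's rho over 77 genes was -0.57, against 0.11 for mRNA length and 0.02 for the number of exons, and it was -0.41 with the TopHat level over 76 genes. These are descriptions across genes that share the same libraries and often the same ancestry. The same share had a rho of -0.13 with the log2 ratio of Nrl-/- to WT by BWA.

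In TopHat, the members stood higher. The ratio of TopHat to BWA FPKM in WT had a median of 2.24 over 78 member genes and of 1.28 over 11246 symbols with values in both, and it exceeded 5 in 20 members (25.6%) and in 1.19% of all symbols. Among the 5 largest ratios were 31.1 for Rps6 (43.5 by TopHat and 1.40 by BWA), 21.7 for Rpl24, 17.8 for Rps29 and 16.3 for Rps10. The smallest were 0.620 for Rpl31, 0.971 for Rpl15, 0.999 for Rpl35a, 1.01 for Rpl7l1 and 1.06 for Rps20. The TopHat values had no replicates, were made on another annotation, and give no test.

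**Figure D4:**
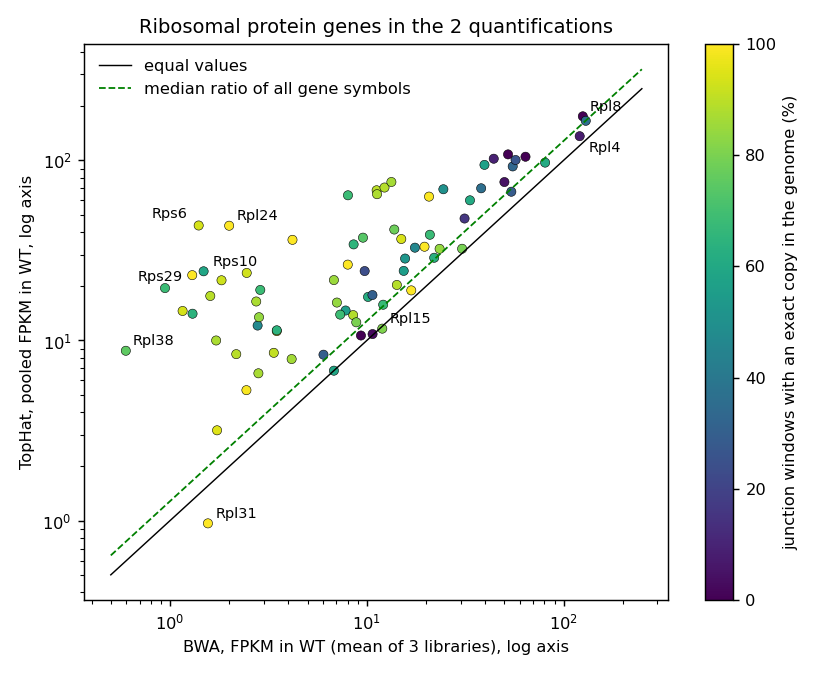
FPKM in WT of 78 member genes by BWA (mean of 3 libraries, horizontal log axis) and by TopHat (pooled, vertical log axis), coloured by the percentage of junction windows with an exact copy in the genome, with lines of equality and of the median ratio of all symbols (1.28). Rps6, Rpl24, Rps29, Rps10 and Rpl38 lie far above the lines, and Rpl31 below them.

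Between genotypes, the TopHat level of the family differed little in the FPKM as listed, which were not rescaled. The summed FPKM of the 78 genes was 3080 in WT and 3076 in Nrl-/- retina. The log2 ratio of Nrl-/- to WT had a median of 0.03 over the members and of 0.08 over all 11246 symbols, and lay between -0.20 and 0.20 for 70 of 78. The highest was that of Rpl15 (0.50) and the lowest that of Rpl10a (-0.28, 68.2 in WT and 56.3 in Nrl-/- retina), which had BWA FPKM of 12.3, 9.93 and 11.5 in WT and of 9.20, 8.51 and 10.1 in Nrl-/- retina. TopHat and BWA used the same libraries, so that these values are no independent evidence.

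A large part of the TopHat signal of the family was assigned to the copies. Taken as copies were annotated pseudogenes and symbols with "-ps" that held at least 20 of a parent's windows or bore its name, and 174 were listed, 67 in the mRNA table and 107 in the pseudogene table. Their summed FPKM was 4125 in WT and 4075 in Nrl-/- retina, more than that of the parents. In 42 of 64 genes with such a copy the copies together exceeded the parent. Gm14303, a copy of Rps29, was listed at 201 in WT and 188 in Nrl-/- retina while Rps29 was at 23.1 and 22.0, and Rpl38-ps2 at 103 and 102 while Rpl38 was at 8.77 and 8.95. Gm9385, a copy of Rpl24, was at 145 and 155, and Gm13654, a copy of Rps6, at 69.9 and 75.6. Whether these reads came from the parent mRNA or from a transcribed copy was not tested.

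**Figure D5:**
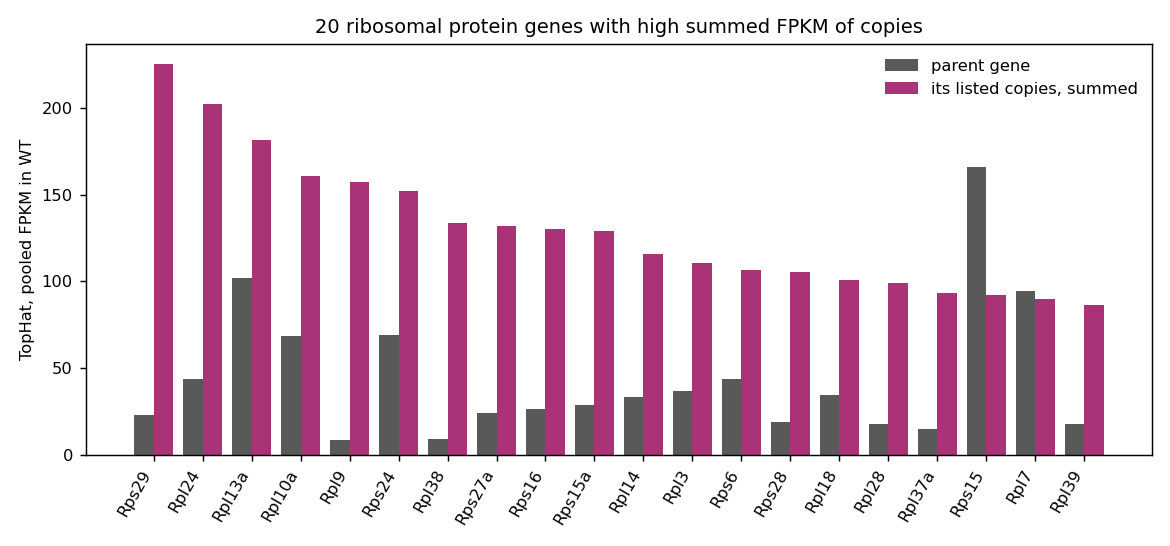
Pooled TopHat FPKM in WT of the parent gene (grey bars) and of its listed copies summed (purple bars) for 20 member genes with a high sum of copies. The copies exceed the parent in 18 of the 20, with Rps29 at 23.1 against 226, and the exceptions are Rps15 at 166 against 92.2 and Rpl7 at 94.4 against 89.99.

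Other genes of protein synthesis were counted by the most abundant transcript per symbol. Over all transcripts 26.7% were higher and 10.1% lower, and over the gene sums of all symbols 30.3% and 11.1%. The share over the most abundant transcript of every symbol was not computed. Of 36 initiation factor genes 11 rose and 1 fell (median log2 fold change 0.16), of 8 elongation factor genes 3 rose and 0 fell (0.12), and of 18 further genes with a TOP motif 6 rose and 1 fell (0.05). Some genes stand in more than 1 of these lists. Of 48 ribosome biogenesis factors 15 rose and 2 fell (0.10), and of 18 regulators of ribosomal protein mRNAs 4 rose and 2 fell (-0.02). Fau and Gnb2l1, which encode ribosomal proteins under other symbols, were not called, with log2 fold changes of -0.17 and -0.03. Some markers of other cells were called as well, and their counts stand beside the same shares over all transcripts. Of 4 microglia genes measured 2 rose, Cd68 and Tyrobp, and their summed FPKM was 5.18 to 5.51 in WT and 6.31 to 6.98 in Nrl-/- retina, while Cx3cr1 and Csf1r were not called. Of 5 Mueller glia genes 2 rose, Apoe (log2 fold change 0.55) and Slc1a3 (0.17). The sums of the 5 overlapped, at 795 to 859 in WT and 830.2 to 919 in Nrl-/- retina. None of 5 erythrocyte genes was called, and their sum was 24.4 in Nrl-/- replicate 3 and 9.70 to 14.8 in the other libraries. No measured gene of these 3 marker lists was at 0 in any library, and their part in the changes of the protein synthesis genes was not tested. Calls of the lists, here and in the next paragraphs, are those on the deposited values, and how they fare under the 4 scalings was not examined. Over all transcripts the share called higher was 15.3% to 16.3% under those scalings.

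The largest changes among the initiation factors were those of Eif3b and Eif3l, subunits of the eIF3 complex that recruits the small subunit. Eif3b rose from 11.9 ± 0.402 to 26.7 ± 1.32 (log2 fold change 1.11) and Eif3l from 15.8 ± 0.603 to 26.6 ± 0.400 (0.71), while Eif4a2, an RNA helicase, rose from 31.6 ± 1.31 to 45.4 ± 2.29 (0.51) and Eif3i from 16.2 ± 0.594 to 21.9 ± 0.331 (0.42). Values are FPKM in WT and Nrl-/- retina (SD, n = 3), called by limma. The subunit Eif3f fell from 34.1 ± 2.22 to 27.6 ± 0.607 (-0.30).

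Of the elongation factors, Eif5a rose from 20.8 ± 1.81 to 28.3 ± 2.68 (log2 fold change 0.42). Eef1a1, which brings aminoacyl-tRNA to the ribosome, rose from 265 ± 18.4 to 327 ± 1.31 (0.30), and Eef1b2, which recharges it, from 14.3 ± 1.04 to 17.8 ± 0.199 (0.30). Among other mRNAs with a TOP motif, Naca rose from 7.34 ± 0.701 to 9.41 ± 0.190 (0.32) and Npm1 from 23.4 ± 2.86 to 29.3 ± 0.365 (0.32).

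The biogenesis factors held changes of both signs. Nop16 rose from 6.81 ± 0.837 to 13.096 ± 0.477 (log2 fold change 0.86), and Rpf2, which brings 5S ribosomal RNA with Rpl5 and Rpl11 to the large subunit, from 2.64 ± 0.578 to 4.22 ± 0.703 (0.53). Rrp1b fell from 14.4 ± 1.13 to 7.08 ± 1.07 (-0.93). Of the regulators, Rheb, the GTPase that activates mTOR complex 1, rose from 14.0 ± 0.180 to 18.7 ± 0.236 (0.39), Akt1s1 from 3.999 ± 0.673 to 5.19 ± 0.215 (0.32), Mlst8 from 10.1 ± 0.923 to 12.6 ± 0.0542 (0.30), and Max fell from 18.7 ± 0.313 to 14.9 ± 0.127 (-0.31). Mtor, the kinase of mTOR complex 1, fell from 10.8 ± 1.18 to 8.72 ± 0.291 (-0.27).

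Among the WT libraries the members also deviated from library to library. The median deviation of the 89 members from their group mean (log2) was -0.04 in WT replicate 1, 0.00 in WT replicate 2 and 0.03 in WT replicate 3, where that of all transcripts lay between -0.01 and 0.01. Of the 20 members with a mean FPKM of 20 or more, 15 lay below the WT mean in WT replicate 1, 7 in WT replicate 2 and 6 in WT replicate 3. In Nrl-/- replicates 1, 2 and 3 the counts below the Nrl-/- mean were 11, 7 and 10, and the median deviations of the members lay between -0.01 and 0.02. The median log2 fold change of the members was -0.01 without WT replicate 1 and 0.04 without WT replicate 3.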

How the data were processed

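Retinal RNA of 3 WT and 3 Nrl-/- mice was sequenced by the study as 70-base single reads. The authors aligned the reads to mm9 with BWA, estimated FPKM per refFlat transcript in Partek, and deposited log2(FPKM + 1) with 2 decimals, keeping those transcripts that reached an FPKM of 1 somewhere among the 6 libraries. From TopHat alignments the authors deposited 1 pooled FPKM per genotype on Ensembl transcripts. Their lists of differential transcripts (fold changes and p-values) were not used. The number of reads per library was not analysed here, and the precision is that of 3 libraries a group.

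The fit was limma 3.58.1 (R 4.3.3) on the deposited log2 values of all mRNA transcripts, with a trend in the prior and Benjamini-Hochberg adjustment. FPKM were computed back from the log2 values, and the 1 added makes fold changes of low transcripts smaller. Windows of 70 bases came from 1 GENCODE vM1 mRNA a gene and were looked up in NCBIM37, and Rpl41 and Rpl34-ps1 had no match there. Python 3.11.15, numpy 2.4.6, pandas 2.3.3, numba 0.67.0, scipy 1.17.1 and matplotlib 3.10.9 were used. The script was tested on simulated data.

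The members and lists were chosen with earlier results of these data known. Named by rule were the 8 highest and 8 lowest members, up to 8 called rises and falls, and the housekeeping genes that the study evaluated. So were the 5 highest and 5 lowest ratios of TopHat to BWA, paralogs, genes with several transcripts, and up to 4 called genes of each other list. Named after their values were seen were Rpl10a, Rps14, Rpl11, Rpl39 and Rps4x, the copies, Eif3f, Mtor, Fau and Gnb2l1. Rpl8 and Rps20 fall under the rule, but their calls after scaling were named after their values were seen. Results for some genes that the rule would name are not reported here, although counts and sums include them. The alternatives tried were: a pseudocount of 0.1 or 0.5, filters keeping transcripts that reach FPKM 1 in 3 libraries or FPKM 5 in any, limma with no trend, limma with a robust prior, an ordinary linear model, other scalings (4), a block for the replicate number, dropping single libraries, and gene sums.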

Additional observations from a re-analysis of the deposited data

How the results depend on the processing

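Without a test, the median log2 fold change of the members moved from 0.02 to -0.085 with median-of-ratios, -0.0849 with upper-quartile, -0.11 with quantile normalization and -0.10 without the 25 highest transcripts. In that order of scalings 5, 5, 5 and 4 members were higher and 13, 13, 15 and 13 lower, against 8 and 7 on the deposited values, while over all transcripts 15.3% to 16.3% were higher and 14.8% to 15.7% lower, against 26.7% and 10.1%. The ordinary linear model called 3 higher and 2 lower. The count past a fold change of 1.5, for which all alternatives were chosen after seeing the data, rose from 0 to 2 under each scaling, to 4 with a pseudocount of 0.1 and to 2 with 0.5, and ran from 0 to 3 without single libraries. With FPKM summed per symbol the sign turned for Rpl35a NM_001130484 (-0.0851), Rpl34 NM_026724 (0.0153) and Rps24 NM_207634 (0.11), since other transcripts of the gene enter the sum. Leaving out 1 library gave 5 to 12 higher, 4 to 7 lower and a median of -0.01 to 0.04. Same-numbered WT and Nrl-/- libraries were no pairs by these deviations, whose correlations were 0.0286, 0.0237 and 0.124. With the replicate block 9 members were higher and 9 lower, and only replicate 3 correlated best with its own number. Over the named transcripts, 880 of 965 values under alternatives kept direction and side of the threshold. These include transcripts that were not called on the deposited values, so that this is no measure of the calls alone. Among the called members, Rpl36al was called in 7 of 18 alternatives, Rpl7l1 in 8 of 18 and Rpl10 in 8 of 17. Rpl15, Rpl5, Rpl36 and Rps19bp1 were called in all 18, and the others lay between. The number of libraries limits the precision.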

Other observations

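Outside the mRNA table, Rps27 (NR_033727) was listed among noncoding RNAs at 1.57, 1.00 and 1.23 FPKM in the WT libraries and 0.670, 0.741 and 1.03 in the Nrl-/- libraries. Rps4y2 (NR_003634), a relative of Rps4x, was at 20.9, 13.3 and 13.5 in WT and at 13.12, 14.9 and 13.8 in Nrl-/- retina, so that WT replicate 1 stood above the others. Rps19-ps3 (NR_033639), listed as a pseudogene, was at 4.54, 3.08 and 2.39 in WT and at 2.48, 2.27 and 2.71 in Nrl-/- retina. These 3 transcripts were not tested.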
